A study of Mus musculus with 8 samples.

Results

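The genes described here are the protein-coding mouse genes that move or sense zinc, iron and copper. They were taken by symbol: 10 zinc exporters of the SLC30 (ZnT) family, 14 transporters of the SLC39 (ZIP) family and 18 further genes set by name, 42 of the 42416 gene identifiers in all. The RNA came from flow-sorted distal convoluted tubules of mice, the nephron segment that reabsorbs NaCl through the NaCl cotransporter NCC. The 4 KO libraries came from mice labelled Cnb1fl Tg/Tg and the 4 Control libraries from mice labelled Cnb1fl wt. All 8 animals also carried NCCcre Tg/+ and TOMATO Tg/+, and all received oral tamoxifen, 2 mg per animal and day for 5 days, with 3 weeks between treatment and tissue collection. Cnb1, gene symbol Ppp3r1, encodes the regulatory B subunit of the calcium-dependent phosphatase calcineurin, and the Cre is named for the NaCl cotransporter. Each library held 1000 fragments, and each label named another animal. Replicate numbers below follow the order of deposit and only name libraries. The sources used here do not give strain, age or sex of the animals.

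Zinc leaves the cytosol through SLC30 proteins, which carry it out of the cell or into vesicles and organelles, and enters the cytosol through most SLC39 proteins. Metallothioneins bind surplus zinc and copper, and the zinc-sensing transcription factor MTF1 switches on the metallothionein genes and Slc30a1 through short DNA motifs called metal response elements. Cells take up transferrin-bound iron through the transferrin receptor (Tfrc), store it in ferritin (Fth1 and Ftl1 chains) and export it through ferroportin (Slc40a1). Iron regulatory proteins bind hairpins in these mRNAs, the iron-responsive elements, blocking translation when the hairpin lies before the coding sequence and protecting the mRNA when it lies after it. Kidney tubules recover filtered metals, and the distal nephron holds several of these transporters.

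The hairpins of the iron genes are shown first, since the transcripts that store, export and take up iron carry the same short element at opposite ends. The letters searched on the strand of the mRNA were C, 5 bases, CAGTG followed by A, C or T, and 5 bases that pair with the first 5, G-T pairs allowed. Capitals mark the CAGTG of the loop, and the sequences are from the principal GENCODE vM21 transcripts (GRCm38).
Fth1, before the coding sequence: ctgcttcaaCAGTGcttgaacgg
Ftl1, before the coding sequence: ttgcttcaaCAGTGtttgaacgg
Slc40a1, before the coding sequence: cttcagctaCAGTGttagctaag
Tfrc, after the coding sequence, first match: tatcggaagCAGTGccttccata
Tfrc, after the coding sequence, next match: tatcgggagCAGTGtcttccata
Tfrc, after the coding sequence, next match: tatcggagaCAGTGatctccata
Tfrc, after the coding sequence, last match: tatcgggaaCAGTGtttcccata
The match began at base 93 of the 929-base Fth1 transcript, base 84 of the 968-base Ftl1 transcript and base 96 of the 3370-base Slc40a1 transcript. The 4 matches of Tfrc lay between bases 3321 and 3828 of a 4890-base transcript. Among the 21901 protein-coding genes searched, 222 (1.01%) held a match in any of their protein-coding transcripts. Of the metal handling genes, for which only the principal transcript was counted and from which Slc39a6 was left out, 4 held a match. These counts therefore do not have the same basis.

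The promoters of both metallothioneins and of Slc30a1 are shown because MTF1 is known to act on these genes. The metal response element was searched as TGCACNC and TGCGCNC on both strands, and capitals mark each match as read on the strand of the gene. The windows are RefSeq promoters on GRCm38.p6, from 250 bases before to 50 bases after a start given there. Positions are counted from 1 at that start, which can differ from the GENCODE gene start. For Mt2 the GENCODE gene starts at base 94172664, so every match in its window lies before the annotated gene. Elements outside the windows were not searched.
Mt1, chr8:94178839-94179138, plus strand: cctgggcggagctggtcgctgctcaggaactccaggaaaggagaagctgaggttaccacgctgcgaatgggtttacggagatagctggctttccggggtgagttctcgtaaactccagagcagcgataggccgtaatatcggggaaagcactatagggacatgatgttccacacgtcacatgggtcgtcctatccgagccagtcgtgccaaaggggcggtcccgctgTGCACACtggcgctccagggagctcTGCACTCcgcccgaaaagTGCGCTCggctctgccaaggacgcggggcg
Mt2, chr8:94172368-94172667, plus strand: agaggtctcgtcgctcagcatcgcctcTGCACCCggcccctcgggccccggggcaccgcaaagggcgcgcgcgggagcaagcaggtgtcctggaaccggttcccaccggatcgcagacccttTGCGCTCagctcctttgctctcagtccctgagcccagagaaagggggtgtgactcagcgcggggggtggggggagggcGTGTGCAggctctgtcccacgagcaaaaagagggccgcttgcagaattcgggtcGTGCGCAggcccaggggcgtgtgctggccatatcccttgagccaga
Slc30a1, chr1:191906531-191906830, plus strand: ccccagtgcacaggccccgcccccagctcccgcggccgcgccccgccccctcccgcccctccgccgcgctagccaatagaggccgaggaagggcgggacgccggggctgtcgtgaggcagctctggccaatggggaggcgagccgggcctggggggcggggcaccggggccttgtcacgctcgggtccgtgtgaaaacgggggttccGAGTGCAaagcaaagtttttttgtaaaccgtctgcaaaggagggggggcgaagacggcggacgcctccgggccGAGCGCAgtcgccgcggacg
Matches began at -23, 3 and 21 in Mt1, at -223, -128, -50 and 5 in Mt2, and at -43 and 31 in Slc30a1. At least 1 match was present in 25.7% of all 32851 windows in the table, and at least 2, 3 and 4 matches in 7.11%, 1.97% and 0.517% of them. Of the 46 windows of 35 metal handling genes, 39.1% held at least 1 match and 17.4% at least 2. Slc30a2, the zinc exporter with the called difference below, had 2 matches in its window, Slc30a4 had 3 and Slc30a9 had none. These are matches of letters and no evidence of binding.

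Library totals ran between 18161442 and 45150953 counts, and mitochondrially encoded genes held 13.4% to 18.4% of counts in KO and 17% to 19.1% in Control. Levels below are CPM, each gene's counts relative to its library size after TMM scaling. Ppp3r1 had 80.8, 74.0, 97.7 and 92.5 CPM in KO, against 108, 97.4, 99.8 and 84.3 CPM in Control. Counts over the whole targeted gene therefore did not separate the groups (edgeR adjusted p = 0.549). Such counts cannot show whether part of the gene was lost, and libraries are called KO by their label alone. Of 8 marker genes of the distal convoluted tubule, 4 were lower in KO (Pvalb, Trpm6, Calb1 and Wnk4) and none was higher. Their summed level was 6307 to 11849 CPM in KO and 17219 to 20049 CPM in Control. Slc12a3, which encodes NCC, averaged 5121 ± 1991 CPM in KO and 6781 ± 1041 CPM in Control. Its groups overlapped, as did those of Emx1 and Sall3. Egf averaged 2702 ± 1215 CPM in KO and 6941 ± 1007 CPM in Control, without overlap, and was not called (edgeR adjusted p = 0.0555). The thick ascending limb, the neighbouring segment, was represented by 5 markers. Their sum was 2738 to 5462 CPM in KO and 7462 to 12203 CPM in Control. Umod held most of that sum, at 3859 ± 979 CPM in KO and 8809.7 ± 2052 CPM in Control, and was called lower in KO. The other 4 (Slc12a1, Cldn10, Cldn16 and Ptger3) overlapped between groups and were not called. Sums of proximal tubule, intercalated cell, connecting tubule and principal cell, endothelial and fibroblast markers overlapped between groups, and none of those markers was called. Estimates of all 7 connecting tubule and principal cell markers were negative, however (log2 fold change -1.61 to -0.56). Their sum was 157 to 375 CPM in KO and 353 to 606 CPM in Control. Avpr2, one of them, did not overlap between groups, at 8.85 ± 2.16 CPM in KO and 16.8 ± 4.70 CPM in Control (edgeR adjusted p = 0.100). The 5 red blood cell markers were under the filter. These are bulk libraries, so fewer cells of a type and less RNA per cell cannot be told apart.

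Of the 42 genes, 36 had at least 10 counts in at least 4 libraries and entered the test. One of them was called, the zinc exporter Slc30a2, which fell in KO, and the other 35 were not called by edgeR's quasi-likelihood test at an adjusted p under 0.05. Over all 14444 genes tested, 298 (2.06%) were called, 177 higher (1.23%) and 121 lower (0.838%). At an unadjusted p under 0.05, 2 of the 36 were higher (Slc40a1 and Steap3; 7.80% of all genes) and 4 were lower (Slc30a2, Fth1, Slc30a9 and Tfrc; 6.13% of all genes). The groups did not overlap in 6 of the 36 genes, against 9.40% of all genes. Of these, 3 were higher in KO (Slc40a1, Slc30a7 and Slc39a6; 5.60% of all genes) and 3 lower (Fth1, Slc30a2 and Slc30a9; 3.80% of all genes). The median log2 fold change was 0.01 over the 36 genes and -0.02 over all genes, and the median absolute value was 0.24 over the 36 genes and 0.20 over all genes. Fold changes past 1.5 in either direction were seen in 9 of the 36 (25.0%) and in 14.5% of all genes. The iron genes held 6 of those 9, although none of the 10 iron genes tested was called. Among the 6 were Slc11a1 and Cp, with few counts. Slc11a1 (39 counts in KO, 16 in Control) passed the filter mainly through KO, where it was higher. Cp had 69 counts in KO and 126 in Control. The count of 6 is therefore not read as a result about the iron genes.

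**Figure D1:**
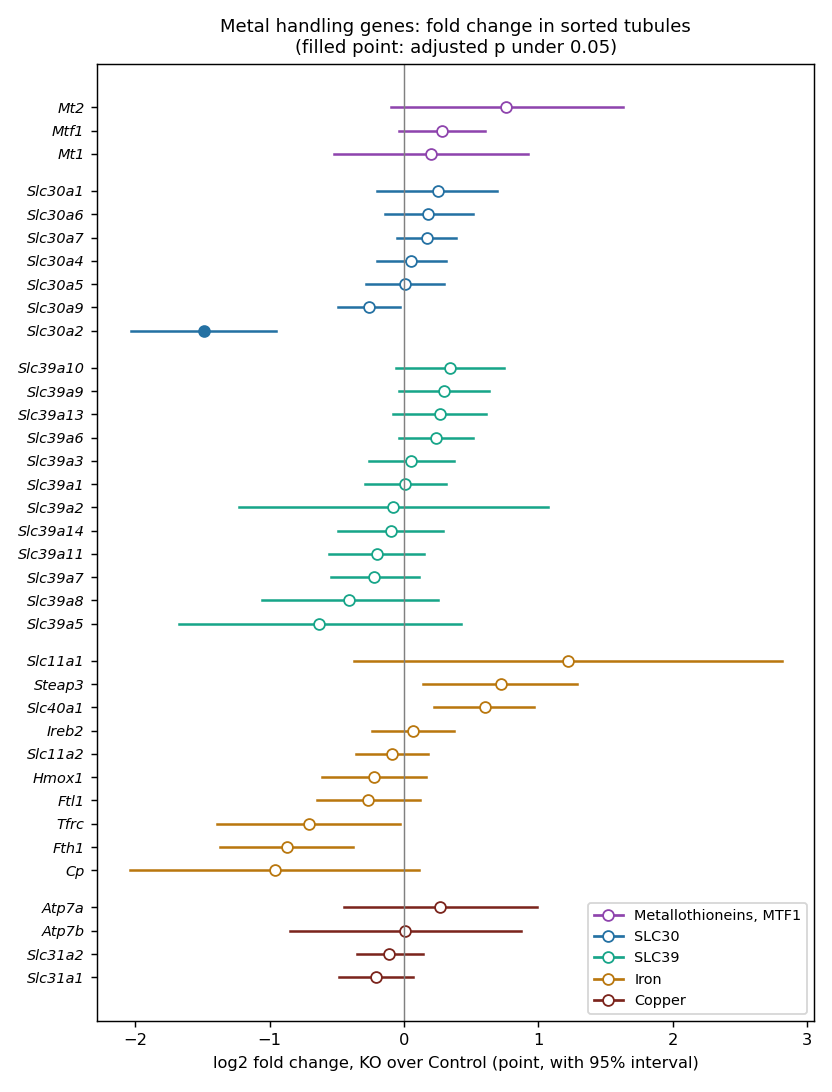
Log2 fold change (KO over Control, x axis) of the 36 metal handling genes tested, grouped by role down the page, with points for the edgeR estimate and lines for its 95% interval. The filled point is Slc30a2 at -1.49, the only gene with an adjusted p under 0.05, and the lines of Fth1, Slc40a1, Steap3, Tfrc and Slc30a9 also lie to 1 side of 0.

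The 6 genes under the filter were near or at 0 counts. Hamp, which encodes the iron hormone hepcidin, and Slc30a10, known mainly as a manganese exporter, had no count in any library, which allows a level of up to 0.0137 CPM over all libraries. Slc30a3 and Slc30a8, known as vesicular zinc exporters of neurons and pancreatic beta cells, had 1 count each, in a KO library. Slc39a4, the main intestinal zinc importer, had 0 counts in KO and 5 in Control. Slc39a12, the one of the 6 with most counts, had 4 counts in KO and 10 in Control, so no gene of the set lay close below the filter. Slc11a1, an iron and manganese transporter of macrophage phagosomes, lay just inside it with 39 counts in KO and 16 in Control, and passed mainly through its KO libraries.

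Set against transcript length, the ferritin chains and metallothioneins were the most abundant metal handling transcripts in the sorted tubules. Fth1 stood first in both groups with a mean level of 1696 CPM per kilobase of its principal transcript in KO and 3106 in Control. Mt1 had 701 CPM per kilobase in KO and 609 in Control, and Ftl1 had 570.3 CPM per kilobase in KO and 686 in Control. Mt2 followed with 365 CPM per kilobase in KO and 214 in Control, then Tfrc with 55.1 CPM per kilobase in KO and 90.0 in Control. Levels thus fell off steeply below the ferritins and metallothioneins. The order of Mt1 and Ftl1 was not the same in KO and Control, and which of them was higher differed between libraries within each group. Among zinc transporters the most abundant by this length were, in each family, Slc39a7 with 37.4 CPM per kilobase in KO and 43.5 in Control, and Slc30a5 with 27.1 CPM per kilobase in KO and 26.9 in Control. Slc30a2 had 5.28 CPM per kilobase in KO and 14.9 in Control, and stood at rank 24 in KO and rank 16 in Control among the 42 genes. This order depends on the length used. Per kilobase of all annotated exons, Slc30a2 had 4.67 CPM in KO and 13.2 in Control (rank 9 in Control), and Slc30a5 had 11.8 CPM in KO and 11.7 in Control (rank 11 in Control). The 42 genes together took 0.415% to 0.483% of all counts in KO and 0.476% to 0.631% in Control. Fth1 alone was 28.6% to 41.8% of those counts in KO and 43.9% to 58.2% in Control.

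**Figure D2:**
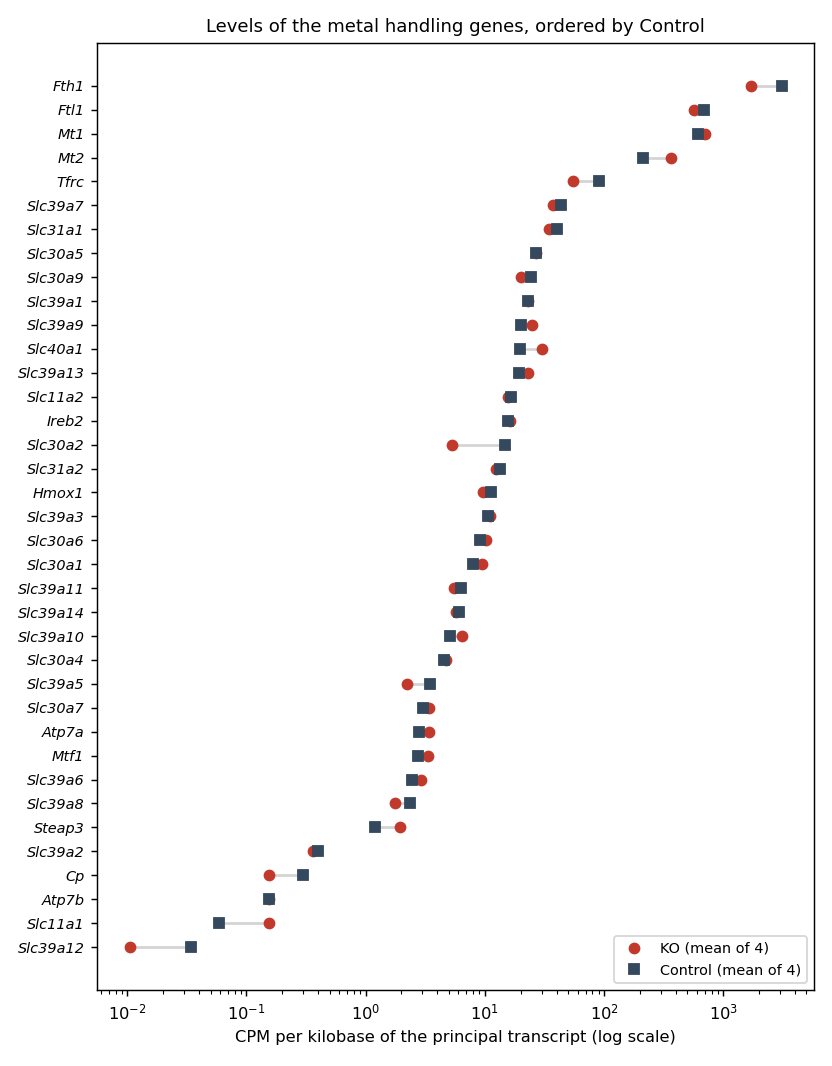
Mean level of each metal handling gene with a value above 0 in both groups, in CPM per kilobase of the principal transcript on a log axis, as circles for KO and squares for Control (n = 4 libraries each), ordered by the Control level. Fth1 is at the top with 1696 in KO and 3106 in Control, and the widest gap among genes above 1 CPM per kilobase is that of Slc30a2, 5.28 in KO and 14.9 in Control.

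Slc30a2 (ZnT2; ENSMUSG00000028836, chromosome 4, 134343181 to 134354484, plus strand, GRCm38) loads zinc into vesicles and is known for secreting zinc into milk. It had 19.8, 15.3, 21.8 and 9.77 CPM in KO, against 38.2, 49.9, 40.3 and 59.4 CPM in Control. Every KO library lay below every Control library, with a gap wider than the range within KO and narrower than the range within Control. The means were 16.7 ± 5.34 CPM in KO and 47.0 ± 9.75 CPM in Control (SD, n = 4 each), from 2107 counts in KO and 4817 in Control. The log2 fold change was -1.49 ± 0.24 (SE; 95% interval -2.03 to -0.95), a KO level of 0.356 times that of Control, with an edgeR adjusted p of 0.0174. Its exons overlap no other gene in the annotation.

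The difference in Slc30a2 had the same sign within each form of file name and each series of animal number that held both groups. The sources used here do not say whether these are batches. In the libraries with an index in the file name (1 KO, 1 Control) the log2 difference was -1.33, and in those without (3 KO, 3 Control) it was -1.61. By series of animal number it was -0.95 between 1 KO and 1 Control animal and -1.60 between 3 KO and 2 Control animals, while the last series held a Control animal only. With a block for that series the log2 fold change was -1.36 and the edgeR adjusted p was 0.0975. The call was also lost without KO replicate 2 (-1.45, edgeR adjusted p = 0.0757) and without Control replicate 4 (-1.36, edgeR adjusted p = 0.0628). The marker sums of the distal convoluted tubule and the thick ascending limb, given above, were lower in KO as well, and their part in this difference was not tested.

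The other zinc exporters had small differences. Slc30a9, a zinc exporter of mitochondria, had 123, 108, 123 and 107 CPM in KO, against 149, 133, 136 and 135 CPM in Control. Its groups did not overlap, but the log2 fold change of -0.26 ± 0.10 was not called (edgeR adjusted p = 0.298). Slc30a1, the zinc exporter of the plasma membrane and an MTF1 target, had 47.1, 42.7, 68.1 and 41.1 CPM in KO, against 35.1, 51.6, 47.6 and 33.1 CPM in Control. The groups overlapped, with a log2 fold change of 0.25 ± 0.20 (95% interval -0.20 to 0.69). Slc30a7, which carries zinc into the Golgi and related vesicles, had 31.3, 28.7, 31.3 and 31.1 CPM in KO, against 24.7, 27.3, 28.4 and 28.3 CPM in Control. These groups did not overlap, and the log2 fold change of 0.17 ± 0.10 was not called (edgeR adjusted p = 0.462). Slc30a5, which exports zinc into the early secretory pathway, had 77.5, 78.0, 104 and 85.7 CPM in KO, against 91.3, 94.9, 80.4 and 75.6 CPM in Control. Its groups overlapped. Slc30a5 and its partner subunit Slc30a6 had log2 fold changes of 0.01 ± 0.13 and 0.18 ± 0.15, and Slc30a4, an endosomal exporter, had 0.05 ± 0.11.

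The SLC39 transporters showed no called difference in 12 genes tested, 6 with a positive and 6 with a negative log2 fold change and a median of -0.04. Their estimates ran from -0.63 ± 0.47 in Slc39a5, a zinc importer of the basolateral membrane of epithelia, to 0.34 ± 0.18 in Slc39a10, a zinc importer of the plasma membrane. Slc39a7, which releases zinc from the endoplasmic reticulum, had 90.8, 89.8, 77.7 and 89.0 CPM in KO, against 127, 83.9, 86.1 and 107 CPM in Control, with overlapping groups. Slc39a14 and Slc39a8, which carry iron and manganese as well as zinc, averaged 28.2 ± 1.22 and 5.90 ± 2.09 CPM in KO, against 30.2 ± 7.61 and 7.86 ± 2.23 CPM in Control. The 95% interval of the log2 fold change was -0.54 to 0.11 in Slc39a7 and -0.29 to 0.31 in Slc39a1, a plasma membrane importer. Slc39a9, a Golgi transporter, averaged 129.8 ± 23.2 CPM in KO and 106 ± 13.8 CPM in Control, and Slc39a13, a zinc transporter of the secretory pathway, averaged 57.1 ± 10.3 CPM in KO and 47.5 ± 6.31 CPM in Control. Slc39a6, a plasma membrane importer, was the single SLC39 gene whose groups did not overlap, at 10.8, 11.3, 11.4 and 11.8 CPM in KO and 10.2, 9.36, 9.41 and 9.46 CPM in Control (log2 fold change 0.24 ± 0.12, edgeR adjusted p = 0.416). The plasma membrane importers Slc39a2 and Slc39a3 and the related Slc39a11 had log2 fold changes of -0.08 ± 0.52, 0.05 ± 0.14 and -0.20 ± 0.16. Exons of Slc39a7, Slc39a13 and Slc39a2 overlap those of genes that held 167%, 325% and 1795% as many counts, so their values are uncertain.

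Metallothionein levels varied as much within groups as between them. Mt1 had 259, 525, 259.6 and 496 CPM in KO, against 455, 433, 213 and 236 CPM in Control, and the groups overlapped. Its log2 fold change was 0.20 ± 0.32 (95% interval -0.52 to 0.92). Mt2 had 83.3, 276, 149 and 237 CPM in KO, against 128, 169, 72.5 and 68.5 CPM in Control, with 2 KO libraries above all Control libraries and the lowest KO library among the Control values. Its log2 fold change of 0.76 ± 0.39 was not called (95% interval -0.10 to 1.63, edgeR adjusted p = 0.413). The spread between libraries thus left the size of a difference in Mt2 poorly fixed. Mt1 exceeded Mt2 in every library, by 3.11, 1.90, 1.74 and 2.09 times in KO and by 3.55, 2.56, 2.93 and 3.44 times in Control. Mtf1, the zinc sensor, had 26.0, 22.9, 27.6 and 25.2 CPM in KO, against 16.1, 23.4, 24.1 and 20.1 CPM in Control. It was not called (log2 fold change 0.28 ± 0.14, edgeR adjusted p = 0.412), and its exons overlap those of an opposite-strand gene with 86.3% as many counts.

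**Figure D3:**
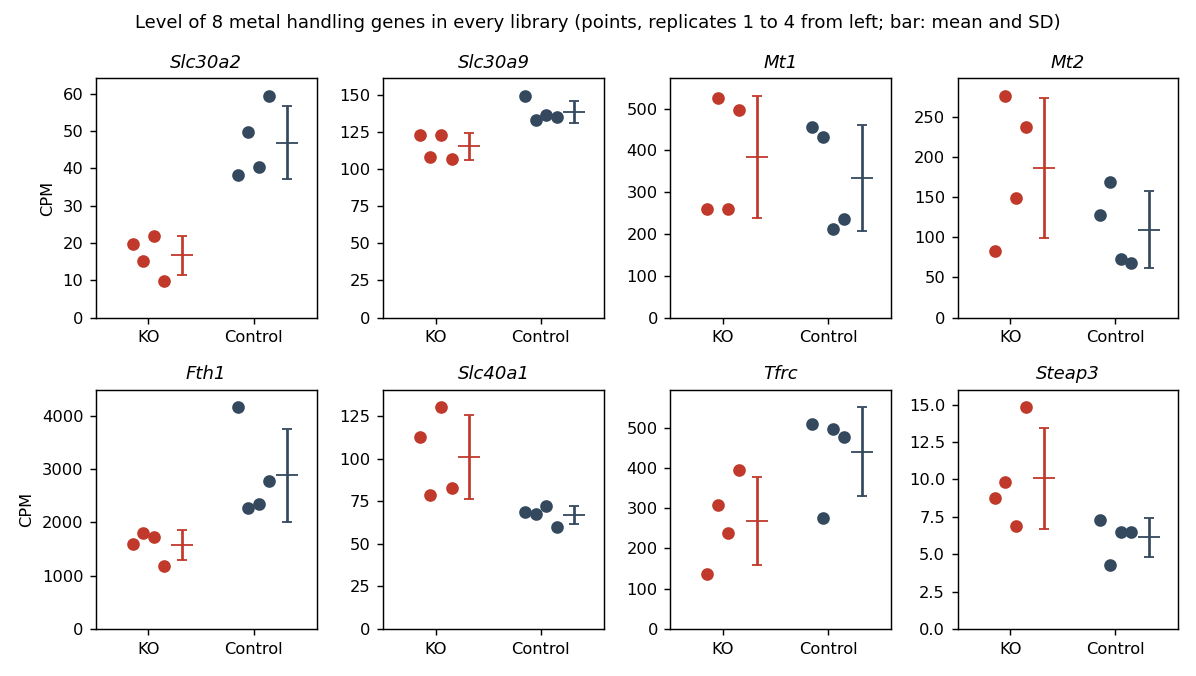
CPM of 8 metal handling genes in each library, KO left and Control right in every panel, with replicates 1 to 4 from left to right within a group and a bar for the mean and SD (n = 4). Slc30a2, Slc30a9, Fth1 and Slc40a1 do not overlap between groups, whereas Mt1, Mt2, Tfrc and Steap3 do.

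Among the iron genes, the storage protein Fth1 was lower in every KO library and the exporter Slc40a1 higher in every KO library than in any Control library, but neither passed the threshold. Fth1, the ferritin heavy chain with the ferroxidase activity (chromosome 19, 9980598 to 9985098, plus strand, GRCm38), had 1586, 1807, 1723 and 1185 CPM in KO, against 4158, 2269, 2345 and 2772 CPM in Control. The log2 fold change was -0.87 ± 0.22 (95% interval -1.37 to -0.38), a KO level of 0.546 times that of Control, with an edgeR adjusted p of 0.0909. DESeq2 called it (-0.88, adjusted p = 0.00306). Within the libraries with and without an index in the file name the log2 difference was -0.52 and -0.96, and within the series of animal numbers -1.39 and -0.58. Ftl1, the ferritin light chain, had 627, 585, 397 and 599 CPM in KO, against 687, 712, 533 and 726 CPM in Control, with overlapping groups and a log2 fold change of -0.27 ± 0.17 (edgeR adjusted p = 0.508). The ratio of Fth1 to Ftl1 CPM was 2.53, 3.09, 4.34 and 1.98 in KO and 6.05, 3.19, 4.40 and 3.82 in Control, so these ratios overlapped. Ftl1 also contains a small RNA gene that held 27.8% as many counts. Ferritin genes have near-identical pseudogene copies, and the sources used here do not say how reads shared with them were counted. As for Slc30a2, the tubule marker sums were lower in KO too, and their part in the Fth1 values was not tested.

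Slc40a1 (ferroportin, the cellular iron exporter; chromosome 1, 45908068 to 45926523, minus strand, GRCm38) had 113, 78.5, 130.1 and 83.0 CPM in KO, against 68.5, 67.6, 72.0 and 59.6 CPM in Control. The Control libraries were close together and the KO libraries widely spread above them. The log2 fold change was 0.60 ± 0.17 (95% interval 0.22 to 0.97), a KO level of 1.51 times that of Control, and was not called (edgeR adjusted p = 0.126). It was called by DESeq2 (0.59, adjusted p = 0.0354) and by edgeR on unscaled library totals (0.74, adjusted p = 0.0479), a scaling that moved the median of all genes to 0.13. Within the libraries with and without an index in the file name the log2 difference was 0.74 and 0.51, and within the series of animal numbers 0.72 and 0.44. Macrophages are rich in ferroportin, and the summed level of 13 macrophage and leukocyte markers was 28.3 to 79.9 CPM in KO, against 19.3 to 25.3 CPM in Control. Csf1r held most of that sum in KO replicate 1 (72.3 of 79.9 CPM), and without Csf1r the sums overlapped between groups. Csf1r itself did not overlap, at 72.3, 12.4, 13.3 and 32.8 CPM in KO, against 7.12, 6.02, 7.79 and 7.56 CPM in Control. Its log2 fold change was 2.21 ± 0.52 (edgeR adjusted p = 0.0638). Cd68 did not overlap between groups either, at 2.03 ± 1.45 CPM in KO and 0.508 ± 0.0678 CPM in Control (log2 fold change 1.96 ± 0.54, edgeR adjusted p = 0.116). Ptprc averaged 5.85 ± 3.77 CPM in KO and 1.96 ± 0.864 CPM in Control, with 3 KO libraries above all Control libraries (edgeR adjusted p = 0.172). The other 4 markers tested (C1qb, C1qc, Lyz2 and Cd74) overlapped between groups. C1qb and C1qc had positive estimates, whereas Lyz2 and Cd74 had negative ones (log2 fold change -0.22 ± 0.74 and -0.73 ± 0.50). None of the 7 tested was called. Adgre1, C1qa, Itgam and Fcgr1 were under the filter, and Cd163 and Marco were at 0 in all libraries. The part of these cells in the Slc40a1 values was not tested. For Slc11a1, at 0.247, 0.463, 0.0787 and 0.652 CPM in KO and 0.0488, 0.241, 0.0523 and 0.20 CPM in Control, the part of the macrophage markers was not tested.

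The remaining iron genes were not called, and Tfrc varied widely between libraries. Tfrc had 136, 309, 238 and 394 CPM in KO, against 509.7, 276, 497 and 478 CPM in Control. The groups overlapped through Control replicate 2, and the log2 fold change of -0.71 ± 0.31 was not called (95% interval -1.39 to -0.03, edgeR adjusted p = 0.338). Steap3, the ferrireductase of transferrin endosomes, had 8.77, 9.79, 6.88 and 14.8 CPM in KO, against 7.27, 4.28, 6.48 and 6.46 CPM in Control, with 1 KO library inside the Control range. Its log2 fold change was 0.72 ± 0.26 (95% interval 0.14 to 1.29, edgeR adjusted p = 0.245). Slc11a2, the DMT1 transporter that moves ferrous iron out of endosomes, had 51.5, 47.0, 47.2 and 42.8 CPM in KO, against 40.7, 52.6, 51.2 and 56.0 CPM in Control. Its log2 fold change was -0.09 with a 95% interval of -0.36 to 0.18. Ireb2, the iron regulatory protein IRP2, had 87.9 to 98.9 CPM in the 4 KO libraries, against 67.4, 99.9, 99.7 and 94.4 CPM in Control, where replicate 1 was low. Hmox1, the heme oxygenase that frees iron from heme, had 16.4, 15.4, 16.8 and 11.6 CPM in KO, against 13.8, 17.5, 22.1 and 17.2 CPM in Control. These 3 genes overlapped between groups and had adjusted p-values by edgeR of 0.759 for Slc11a2, 0.844 for Ireb2 and 0.579 for Hmox1. Cp, the ferroxidase ceruloplasmin, was scarce, with 0.288, 0.540, 1.34 and 0.351 CPM in KO and 1.02, 1.37, 1.36 and 1.10 CPM in Control. Its exons overlap those of Hps3, which held 2527% as many counts. Of the transcripts with a match to the element searched, the 3 with it before the coding sequence had estimates of both signs. Tfrc, with its matches at the other end, had a negative one. Elements of another form would not be found by these letters. An element before the coding sequence acts on translation, which was not measured.

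**Figure D4:**
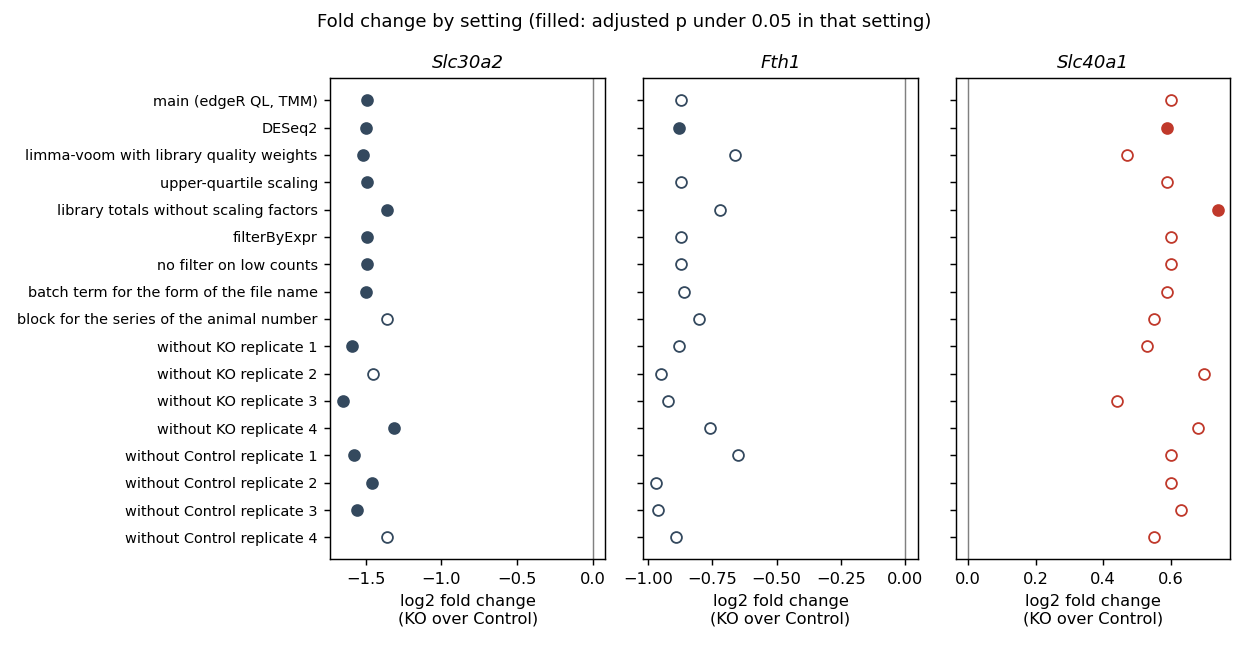
Log2 fold change (KO over Control) of Slc30a2, Fth1 and Slc40a1 under edgeR with TMM and 16 alternatives, with filled points where the adjusted p was under 0.05. Slc30a2 lies between -1.65 and -1.31 and is filled in all but 3 alternatives, Fth1 is filled with DESeq2, and Slc40a1 with DESeq2 and with unscaled library totals.

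The copper genes had no called difference in 4 genes tested. Slc31a1 (CTR1), the high-affinity copper importer, had 128, 125, 148 and 118 CPM in KO, against 129, 169, 157 and 144 CPM in Control, a log2 fold change of -0.21 ± 0.12 (95% interval -0.48 to 0.07). Slc31a2 (CTR2), a related protein of endosomes and lysosomes, had 20.6, 23.8, 23.2 and 22.7 CPM in KO, against 27.4, 22.6, 23.6 and 23.4 CPM in Control. The groups overlapped. The copper-exporting ATPase Atp7a had 19.6, 14.0, 17.9 and 15.1 CPM in KO, against 5.12, 16.2, 19.2 and 14.8 CPM in Control, where Control replicate 1 was low. The related Atp7b, known chiefly from liver, had 0.761, 0.964, 1.18 and 1.10 CPM in KO, against 0.780, 0.650, 1.78 and 0.801 CPM in Control. Atp7a was thus the more abundant copper ATPase per length, at 3.40 CPM per kilobase in KO and 2.82 in Control, against 0.154 for Atp7b in each group.

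A wider list of 54 iron and copper genes outside the 42 gave 40 that could be tested. Of these, 1 was called higher and none lower, against 1.23% and 0.838% of all genes tested. The gene called was Pam, a copper-dependent enzyme that amidates peptides, with 264 ± 39.1 CPM in KO and 165 ± 17.2 CPM in Control (log2 fold change 0.67 ± 0.14, edgeR adjusted p = 0.0413). The call was lost with a term for the form of file name or for the series of animal number. It was also lost when any library other than KO replicate 1 was left out, with log2 fold changes of 0.60 to 0.75 and edgeR adjusted p-values of 0.0549 to 0.130 over those 7 libraries. The median log2 fold change of the 40 was -0.12. Groups did not overlap in 3 higher genes (Pam, Heph and Nfe2l2; 5.60% of all genes) and 3 lower genes (Sod1, Slc48a1 and Mt3; 3.80% of all genes). The metallothionein Mt3 was scarce, at 1.36 ± 0.250 CPM in KO and 2.96 ± 1.75 CPM in Control (log2 fold change -1.11 ± 0.39, edgeR adjusted p = 0.224). Heph, a membrane ferroxidase that works with ferroportin, averaged 69.3 ± 8.0 CPM in KO and 54.3 ± 5.91 CPM in Control without overlap (log2 fold change 0.35 ± 0.12, edgeR adjusted p = 0.237). The copper and zinc superoxide dismutase Sod1 averaged 146 ± 26.9 CPM in KO and 223 ± 36.5 CPM in Control without overlap (log2 fold change -0.61 ± 0.17, edgeR adjusted p = 0.119). Of the genes that sense iron or release it from ferritin, Aco1 (IRP1), Fbxl5, which marks IRP2 for degradation, and Ncoa4, the ferritin autophagy receptor, had log2 fold changes of -0.06, 0.08 and 0.31, none called. Flvcr1, a heme exporter, averaged 39.9 ± 9.91 CPM in KO and 67.9 ± 23.2 CPM in Control (log2 fold change -0.77 ± 0.25, edgeR adjusted p = 0.188).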

How the data were processed

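RNA was sequenced in 8 libraries (4 KO, 4 Control), each of 1000 sorted tubule fragments. The authors deposited raw counts of reads, as whole numbers for each Ensembl gene. The submitters' processing notes name STAR 2.7.4a, fastp 0.20.0, bcl2fastq 2.20 and the build GRCm38.p6. The sources used here do not give the counting program, annotation release, strand setting or handling of multi-mapping reads. Opposite-strand reads of overlapping genes can then not be told apart. Exons of 13 of the 42 genes overlap those of another gene, and in 6 the partner held over 10% as many counts (Slc39a7, Slc39a13, Slc39a2, Cp, Mtf1 and Ftl1).

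Names came from GENCODE vM21, which named 42347 of 42416 identifiers; the other 69 held 0.0199% of counts. Genes with at least 10 counts in at least 4 libraries entered a two-sided quasi-likelihood test in edgeR 4.0.16 (R 4.3.3) with TMM scaling, genotype as the factor and Benjamini-Hochberg adjustment over all 14444 genes (threshold 0.05). The test was checked on simulated data. Standard errors are approximate: the estimate over the square root of its F statistic. Levels compared between genes are CPM per kilobase of the principal transcript. Limits for a count of 0 rest on 3 counts and cover counting error only. Values per library (for Ireb2 in KO, the range) are given for genes with an unadjusted p under 0.05, for the genes set by name, for Slc30a1 and for the SLC30 and SLC39 gene with the highest Control level per kilobase; Slc30a7 and Slc39a6 were added after their values were seen. Alternatives were DESeq2 1.42.0, limma 3.58.1 voom, other scaling and filters, terms for the form of file name or the series of animal number, and leaving out each library. The p-values measure the spread between animals named in the labels. The genes, the wider iron and copper list and the marker lists were chosen with earlier results of these data known.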

Additional observations from a re-analysis of the deposited data

Results flagged for a closer look

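In 7 of the 72 groups of 4 libraries (36 genes, KO and Control), 1 library lay far from the other 3 by Dixon's test at the 95% level. Chance flags about 1 in 20 groups. Among KO libraries, Slc30a7 had 28.7 CPM in replicate 2 and 31.1 to 31.3 CPM in the others. Slc39a10 had 42.4 CPM in KO replicate 4 and 33.0 to 33.4 CPM in the others. Slc39a7 had 77.7 CPM in KO replicate 3 and 89.0 to 90.8 CPM in the others. Among Control libraries, Tfrc had 276 CPM in replicate 2, against 478 to 509.7 CPM in the others, and this library alone made the Tfrc groups overlap. Ireb2 had 67.4 CPM and Slc39a6 had 10.2 CPM in Control replicate 1, against 94.4 to 99.9 CPM and 9.36 to 9.46 CPM in Control replicates 2 to 4. Atp7b had 1.78 CPM in Control replicate 3, against 0.650 to 0.801 CPM in the others.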

How the results depend on the processing

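Over 16 alternatives, the log2 fold change of Slc30a2 stayed between -1.65 and -1.31 and its call held in 13. All genes called numbered 177 higher and 121 lower. DESeq2 gave 426 and 327, limma-voom 283 and 229, the term for the form of file name 105 higher, and the block for the series of animal number 5 and 24. Of the metal handling genes (0 higher, 1 lower), DESeq2 called 1 higher and 2 lower, unscaled library totals called 1 higher, and the animal-series block called 0. Unscaled totals moved the share of calls that were higher to 73.0%, against 59.4% with TMM; the block moved it to 17.2%. The 1 call in the wider iron and copper list became 2 with DESeq2 and limma-voom (Pam and Sod1), and 0 with a term for the form of file name or the series of animal number. Leaving out each library gave 15 to 244 genes higher, 21 to 127 lower, 0 to 1 metal handling genes lower, 0 higher, and 0 to 1 in the wider list. The lowest counts over all genes came without KO replicate 2 (15 and 21) and without Control replicate 4 (18 and 39).

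The sign turned in 11 genes, none called. With limma-voom, Atp7b was -0.12, Ireb2 -0.05 and Slc30a4 -0.02. With the animal-series block, Atp7b was -0.10, Slc30a5 -0.05 and Slc39a1 -0.00075. With unscaled totals, Slc11a2 and Slc31a2 were 0.05, Slc39a14 was 0.04 and Slc39a2 was 0.09. Leaving out each library gave log2 fold changes from -0.01 to 0.46 for Atp7a, -0.17 to 0.43 for Atp7b, -0.06 to 0.12 for Ireb2, -0.0016 to 0.12 for Slc30a4, -0.10 to 0.06 for Slc30a5, -0.05 to 0.12 for Slc39a1, -0.26 to 0.04 for Slc39a14, -0.61 to 0.23 for Slc39a2 and -0.02 to 0.14 for Slc39a3. The cause was not tested.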
